A study of Mus musculus with 14 samples.

Results

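Regulatory T cells restrain other lymphocytes. Their lineage is set by Foxp3, a forkhead transcription factor, and the genes examined here are 7 that are commonly used to recognise such cells: Foxp3 itself, Il2ra (the α chain of the IL-2 receptor, CD25), Ikzf2 and Ikzf4 (Helios and Eos, zinc finger proteins of the Ikaros family), Il10 (a cytokine that dampens immune responses), Lrrc32 (GARP, which holds latent TGF-β at the cell surface) and Itgb8 (the β8 integrin chain, which takes part in the release of active TGF-β). Outside Foxp3, none of them is restricted to regulatory T cells. Activated T cells use Il2ra, follicular helper cells can use Ikzf2, several kinds of helper cell make Il10, and endothelial cells use Lrrc32. The 7 genes were chosen by symbol among 32285 measured genes, with earlier values of these nodules in view, so the levels of the 7 genes are given as a description without tests. In RefSeq's GRCm38.p6 annotation the genes lie apart, with Foxp3 on chromosome X (7579676 to 7595243), Il2ra on chromosome 2 (11642792 to 11693194), Ikzf2 on chromosome 1 (69531207 to 69687351), Ikzf4 on chromosome 10 (128630839 to 128669671), Il10 on chromosome 1 (131019845 to 131024970), Lrrc32 on chromosome 7 (98489305 to 98501831) and Itgb8 on chromosome 12 (119162803 to 119238276).

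The cells came from white nodules of 7 mice with floxed Eif3e alleles (a subunit of translation initiation factor eIF3) and Cre expressed from the Ighg1 locus (Cγ1Cre, cKO), which is active mainly in activated B cells. B cell receptors (BCR) were profiled beside the RNA in mice 27 (liver nodule, 12 mo old), 29 (lung, 12 mo), 31 (spleen, 13 mo), 33 (thymus, 16 mo) and 34 (lung and thymus, 9 mo), and T cell receptors (TCR) in mice 30 (liver, 14 mo) and 32 (spleen, 12 mo). Mice 29, 31, 32 and 34 also carried a Rosa26-YFP reporter, and mouse 34 is listed by the study as a bone marrow chimera made with JHT and cKO marrow. The sample of mouse 27 was, per the study, not a primary nodule like the other 6 but a secondary tumour, passed on from the liver nodule of that mouse, and the transplant hosts were Rag2-/- mice, which make no mature B or T cells of their own. No nodule of a control mouse was analysed here. With 1 nodule per mouse, site, age and mouse cannot be told apart.

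Of 77442 deposited cells, 75503 were kept, and 28237 of these lay in clusters with T cell markers (T-like). Each library carried between 19264039 and 123456962 unique molecular identifiers (UMIs, 1 for each captured RNA molecule). Of 72288 distinct cell barcodes, 3129 occurred in more than 1 library. Levels below are CPM, a gene's share of all UMIs scaled to a common total summed over the cells of a set in 1 mouse. Intervals are exact 95% Poisson intervals for levels and exact 95% binomial intervals for shares, and they cover counting error only.

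The T clones and 3 smaller receptor groups carry the results that follow, and they are identified by the nucleotides of the CDR3, the most variable loop of each receptor chain, read from the deposited contigs. Capitals mark the conserved first and last codons of each CDR3. The clone of mouse 30 used TRBV1 with TRBJ2-1 and TRAV9-2 with TRAJ21, and that of mouse 32 used TRBV26 with TRBJ2-5 and TRAV6N-7 with TRAJ30. A group of mouse 32, clonotype 3, held most of its repeated Foxp3 cells, and clonotypes 2 and 5 of mouse 30 held most of the Il10 UMIs found in its cells with another called receptor.
Mouse 30 clone, β chain: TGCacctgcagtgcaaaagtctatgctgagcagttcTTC
Mouse 30 clone, α chain: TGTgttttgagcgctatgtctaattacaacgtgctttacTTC
Mouse 32 clone, β chain: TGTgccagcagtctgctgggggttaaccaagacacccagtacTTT
Mouse 32 clone, α chain: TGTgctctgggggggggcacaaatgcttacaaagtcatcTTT
Mouse 32 clonotype 3, β chain: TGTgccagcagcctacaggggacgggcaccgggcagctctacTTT
Mouse 32 clonotype 3, α chain: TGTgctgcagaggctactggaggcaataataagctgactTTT
Mouse 30 clonotype 2, β chain: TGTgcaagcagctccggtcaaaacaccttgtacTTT
Mouse 30 clonotype 5, β chain: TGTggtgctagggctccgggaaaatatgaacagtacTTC

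Foxp3 UMIs were rare and lay mostly in T-like cells. Over all nodules 480 Foxp3 UMIs were found in 411 cells, of which 348 were T-like. That was 1.23% of T-like cells (median 1769 UMIs per cell). Among B-like cells, which should lack the gene, 29 of 26155 held a Foxp3 UMI (0.111%, median 6518 UMIs per cell), and 12 of 4067 erythroid-like cells did (0.295%, median 14682 UMIs per cell). The T-like share was thus the largest of these in the shallowest cells.

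Foxp3 T cells were defined as T-like cells outside the T clones with at least 1 Foxp3 UMI and no Cd8a or Cd8b1 UMI. In the TCR mice another receptor also had to be called. There were 215 such cells, with 77, 6, 52, 27, 17 and 36 in mice 29, 30, 31, 32, 33 and 34. The secondary tumour of mouse 27 had 0 of 442, which allows a share of up to 0.679%. Most, 180 cells, held a single Foxp3 UMI, and no cell held more than 3. A further 112 T-like Foxp3 cells of the TCR mice had no TCR call (26 and 86 in mice 30 and 32) and were kept apart. In 193 of the 215 cells the cluster was the same, which held 7516 cells in all. A Cd4 UMI was present in 11, 1, 15, 4, 10 and 16 of them in the same order of mice, fewer than 20 in each, and it was not required.

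The share of CD4 T cells with a Foxp3 UMI was compared between mice, after thinning each cell to 1000 UMIs because deeper cells show a rare transcript more often. Cells here had a Cd4 UMI and no Cd8a or Cd8b1 UMI. Among the BCR mice the thinned share was 0%, 0.376%, 1.40%, 3.86% and 5.25% (mice 27, 33, 29, 34 and 31). Among the TCR mice it was 0.443% and 2.71% (mice 30 and 32). The TCR mice lay within the range of the BCR mice. Means were 1.58% ± 1.60 (SD, n = 2) and 2.18% ± 2.28 (SD, n = 5), a difference that did not exceed the spread between mice (exact two-sided permutation test over 21 splits, p = 0.81). The smallest p this design allows is 0.0476. Without the secondary tumour of mouse 27 the difference was -1.14 percentage points (exact permutation p = 0.60). Before thinning, mouse 31 had 8.47% (15 of 177 cells, interval 4.82% to 13.6%) and mouse 34 had 8.79% (16 of 182, 5.11% to 13.9%). These intervals did not overlap that of mouse 33, with 1.19% (10 of 837, 0.574% to 2.19%), whose cells were the deepest.

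**Figure D1:**
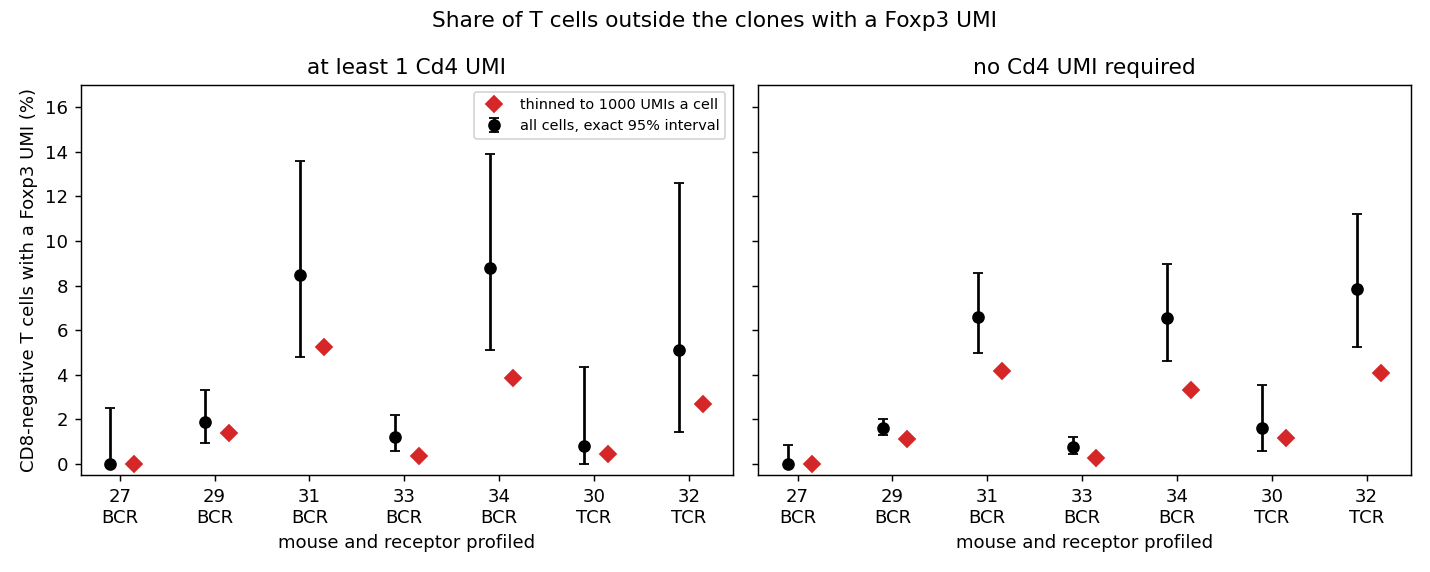
Share of CD8-negative T cells outside the clones with a Foxp3 UMI (vertical axis, percent) in each mouse (horizontal axis, with the receptor profiled), with a Cd4 UMI required (left) or not (right); black points with exact 95% binomial intervals are all cells and red diamonds are cells thinned to 1000 UMIs. Mice 31, 34 and 32 lie highest in both panels and mouse 27 is at 0.

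Il2ra, the receptor chain through which regulatory T cells take up IL-2, was higher in Foxp3 T cells than in other T cells. It stood at 205.9, 76.9, 144 and 270.1 CPM in Foxp3 T cells of mice 29, 31, 32 and 34. T-like cells outside the clones without a Foxp3 or Cd8 UMI (Foxp3-negative T cells) of these mice held 70.5, 17.5, 75.8 and 37.2 CPM. For this set too, another receptor had to be called in the TCR mice. In each of the 4 mice with at least 20 Foxp3 T cells the Foxp3 T cells were higher. Means were 174 ± 82.8 and 50.3 ± 27.7 CPM (SD, n = 4). The fitted log2 ratio was 1.78 (SE 0.27), close to that of Lrrc32 (1.74, SE 0.51). With both sets taken from the cluster that held most Foxp3 T cells, the Il2ra ratio was 1.36 (SE 0.30). In mouse 31, 71.4% of these UMIs came from 1 cell. In the 17 Foxp3 T cells of mouse 33 the level was 671 CPM. After thinning, Il2ra was seen in 4.49% to 13.1% of Foxp3 T cells of the 4 mice and in 1.55% to 5.31% of Foxp3-negative T cells.

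Ikzf2, the gene for Helios, was widespread in both sets. Foxp3 T cells of mice 29, 31, 32 and 34 had 1316, 1561, 1026 and 1000.3 CPM, a mean of 1226 ± 265 (SD, n = 4). Foxp3-negative T cells of these mice had 1001, 903, 594 and 420.4 CPM, a mean of 729.7 ± 269 (SD, n = 4). The Foxp3 T cells were the higher set in each mouse, although the sets touched at about the same level across mice (1000.3 in Foxp3 T cells of mouse 34 and 1001 in Foxp3-negative T cells of mouse 29). The log2 ratio was 0.63 (SE 0.16). It was 0.06 (SE 0.14) when both sets were taken from the main cluster of Foxp3 cells. That cluster also holds cells of similar expression without a Foxp3 UMI. It was made from the same counts and Ikzf2 stood out in it, so both sets there are alike in Ikzf2 partly by selection. Over all 7 mice Foxp3-negative T cells ranged from 136 CPM in mouse 33 to 1001 in mouse 29.

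Itgb8 and Lrrc32, which both act on latent TGF-β, were also higher in Foxp3 T cells of each of the 4 mice. For Itgb8 the levels in mice 29, 31, 32 and 34 were 250.7, 627, 90.0 and 117 CPM, against 117, 238, 59.8 and 64.8 CPM in Foxp3-negative T cells. Mouse 31 was the highest in both sets, and the sets overlapped across mice. For Lrrc32 they were 89.5, 10.99, 54.0 and 29.2 CPM against 19.95, 6.58, 23.9 and 4.14 CPM, from only 18 UMIs in Foxp3 T cells. The level of mouse 31 was 1 UMI (interval 0.278 to 61.2 CPM). After thinning, Lrrc32 was seen there in 0% of Foxp3 T cells and 1.05% of Foxp3-negative T cells. The log2 ratios were 0.95 (SE 0.23) for Itgb8 and 1.74 (SE 0.51) for Lrrc32. Within the main cluster of Foxp3 cells they were 0.46 (SE 0.21) and 1.33 (SE 0.53).

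Ikzf4 and Il10 did not keep 1 direction. Ikzf4, the gene for Eos, had 0, 44.0, 18.0 and 73.0 CPM in Foxp3 T cells of mice 29, 31, 32 and 34 and 11.3, 41.7, 18.9 and 14.5 CPM in Foxp3-negative T cells, from 15 UMIs in Foxp3 T cells. The Foxp3 T cells were the higher set in 2 of the 4 mice. Il10 had 242, 87.9, 108 and 21.9 CPM against 160.0, 173, 131 and 93.0 CPM, so Foxp3 T cells were higher in mouse 29 alone. In mouse 29, 40.7% of these Il10 UMIs came from a single cell. Foxp3 T cells of mouse 33 had 737 CPM of Il10, 57.1% of it from a single cell.

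**Figure D2:**
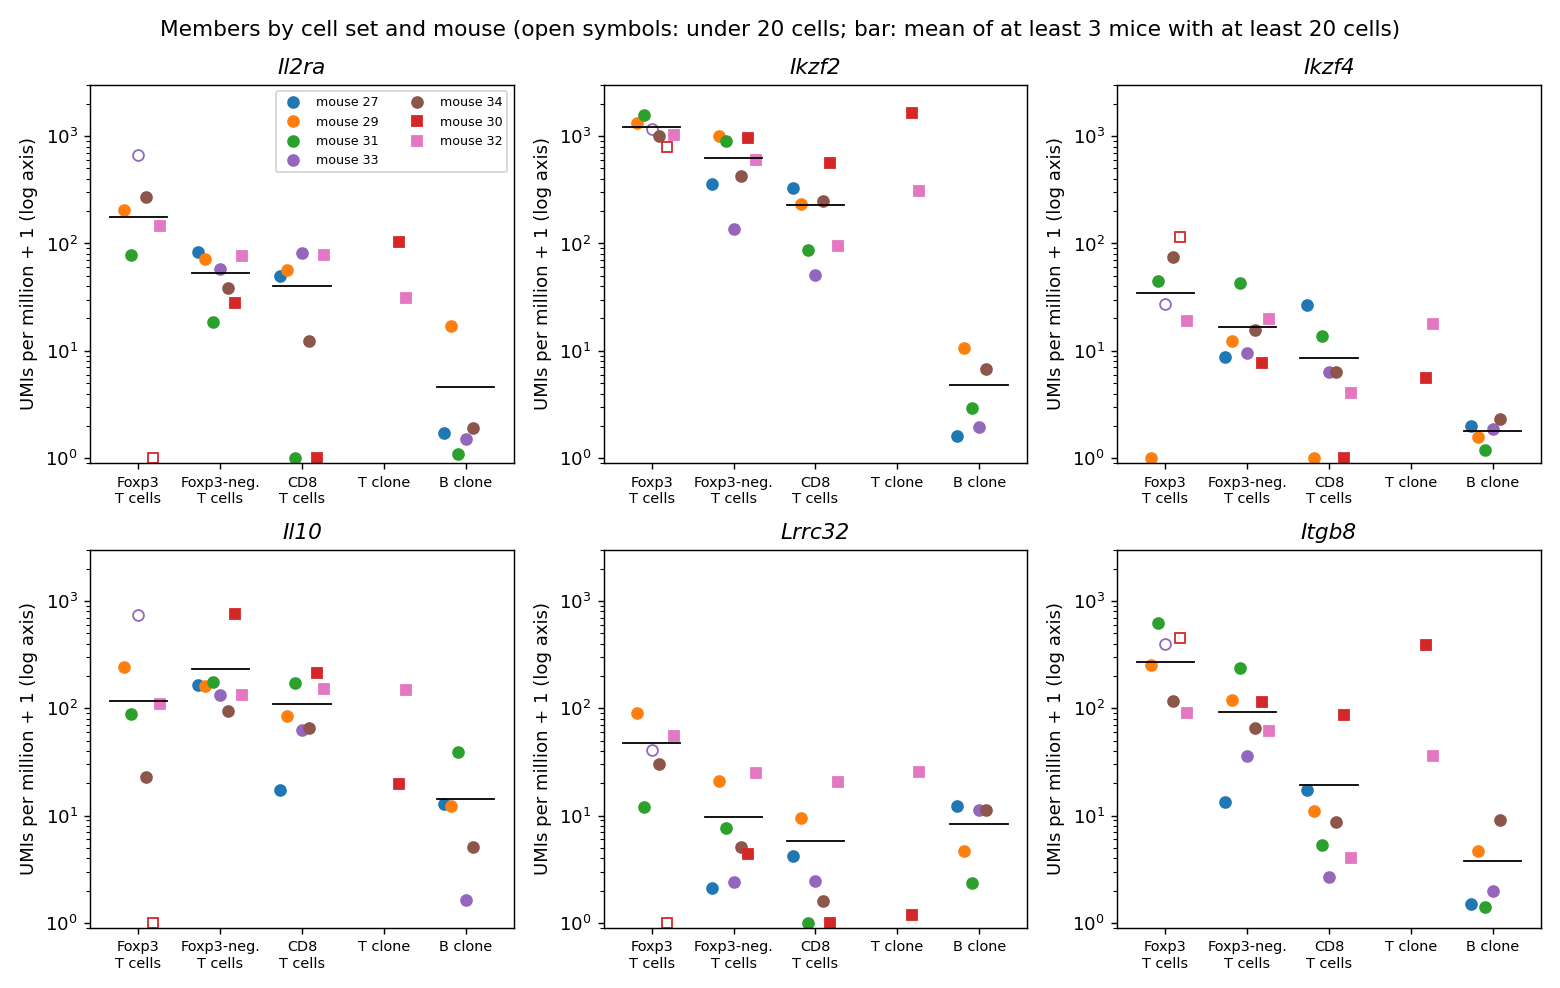
Levels of the 6 members other than Foxp3 (1 panel each; vertical axis CPM plus 1, log axis) in 5 cell sets (horizontal axis), 1 point per mouse (circles BCR mice, squares TCR mice, open symbols under 20 cells), with a bar at the mean where at least 3 mice had 20 cells. Il2ra is higher in Foxp3 T cells than in Foxp3-negative T cells in each of the 4 mice with at least 20 Foxp3 T cells, while Il10 overlaps.

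Foxp3 T cells with at least 2 of the other 6 members made up 35.1%, 55.8%, 51.9% and 55.6% of the set (mice 29, 31, 32 and 34). Among Foxp3-negative T cells of the same mice these shares were 15.4%, 27.3%, 27.4% and 19.5%. Ikzf2 with Itgb8 was the pair in 51.9% of Foxp3 T cells of mouse 31 but in 14.8% of those of mouse 32. Median UMIs per cell of the 2 sets were similar within a mouse (1130 and 1168, 1749.5 and 1662, 2052 and 2664, and 2406 and 2043 in the same order of mice).

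Foxp3 UMIs were few in both T clones. The clone of mouse 30 (2091 T-like cells) held 9 Foxp3 UMIs, 1.69 CPM (interval 0.775 to 3.22), and the clone of mouse 32 (4464 T-like cells) held 7, 0.349 CPM (0.14 to 0.719). Foxp3 T cells of the same mice stood at 677 CPM (6 cells) and 576 CPM (27 cells), which is fixed by how they were chosen. A Foxp3 UMI was seen in 0.383% and 0.157% of clone cells (median 1984 and 3628.5 UMIs per cell). After thinning to 1000 UMIs these shares were 0.164% and 0.0440%, beside 0.0422% in the erythroid-like cells of mouse 32 and at most 0.0367% in a B clone. Other sets varied more. The thinned share was 0.162% in myeloid-like cells of mouse 30 and 0.473% in CD8 T cells of mouse 32, each from 1 Foxp3 UMI. It was 0 in neutrophil-like cells of mouse 30.

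The other members parted the clones. In mouse 30 the clone combined high Ikzf2 and Itgb8 with little Il10, Ikzf4 or Lrrc32. Ikzf2 was at 1658 CPM (interval 1623 to 1693) in the clone and 953 (890.5 to 1019.6) in Foxp3-negative T cells of that nodule, a ratio of 1.74 (1.62 to 1.87). Itgb8 was at 385 CPM (369 to 402) against 113 (91.9 to 137), a ratio of 3.41 (2.79 to 4.21). Il2ra was at 102 CPM (93.8 to 111) against 26.8 (17.2 to 39.9), a ratio of 3.81 (2.53 to 6.001). Il10 went the other way, with 18.8 CPM (15.3 to 22.9) against 753 (698 to 812), a 40.0-fold lower level. Clonotypes 2 and 5 gave 27.4% and 30.8% of the Il10 UMIs of cells with another called receptor, so the 753 CPM rests largely on them. T-like cells of this nodule without a TCR call or a Foxp3 UMI had 132 CPM. Lrrc32 had 1 UMI in 2091 clone cells and 3 in the Foxp3-negative T cells, a ratio of 0.0562 (0.00107 to 0.699). Both Ikzf2 and Itgb8 were seen in 42.0% of clone cells and in 15.2% of the Foxp3-negative T cells.

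The clone of mouse 30 fell into 2 clusters that differed in Il2ra, with 161 CPM (147 to 176) in 1049 cells and 22.3 CPM (16.5 to 29.4) in 1025 cells. Ikzf2 (1538 and 1823 CPM) and Itgb8 (353 and 433 CPM) were high in both. The clusters were made from the same counts, so no test is given.

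In mouse 32 the clone held less Ikzf2, Itgb8 and Il2ra than the Foxp3-negative T cells of its nodule. Ikzf2 was at 306 CPM (299 to 314) against 594 (547 to 644) in Foxp3-negative T cells, a ratio of 0.515 (0.474 to 0.562). Itgb8 was at 34.6 CPM against 59.8, a ratio of 0.579 (0.444 to 0.767). Il2ra was at 30.2 CPM against 75.8, a ratio of 0.399 (0.314 to 0.513). Foxp3-negative T cells with a Cd4 UMI had 45.5 CPM, where the interval of the ratio was wider, 0.369 to 1.34. Levels were closer for Il10 (146 and 131 CPM, ratio interval 0.941 to 1.35), Lrrc32 (24.5 and 23.9 CPM, 0.679 to 1.61) and Ikzf4 (16.7 and 18.9 CPM, 0.555 to 1.48). The ratio intervals cover counting error within 1 nodule and are not read as a test. The T clones are 2 in 2 mice, so the contrast between them has no replicate check and no test was run.

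**Figure D3:**
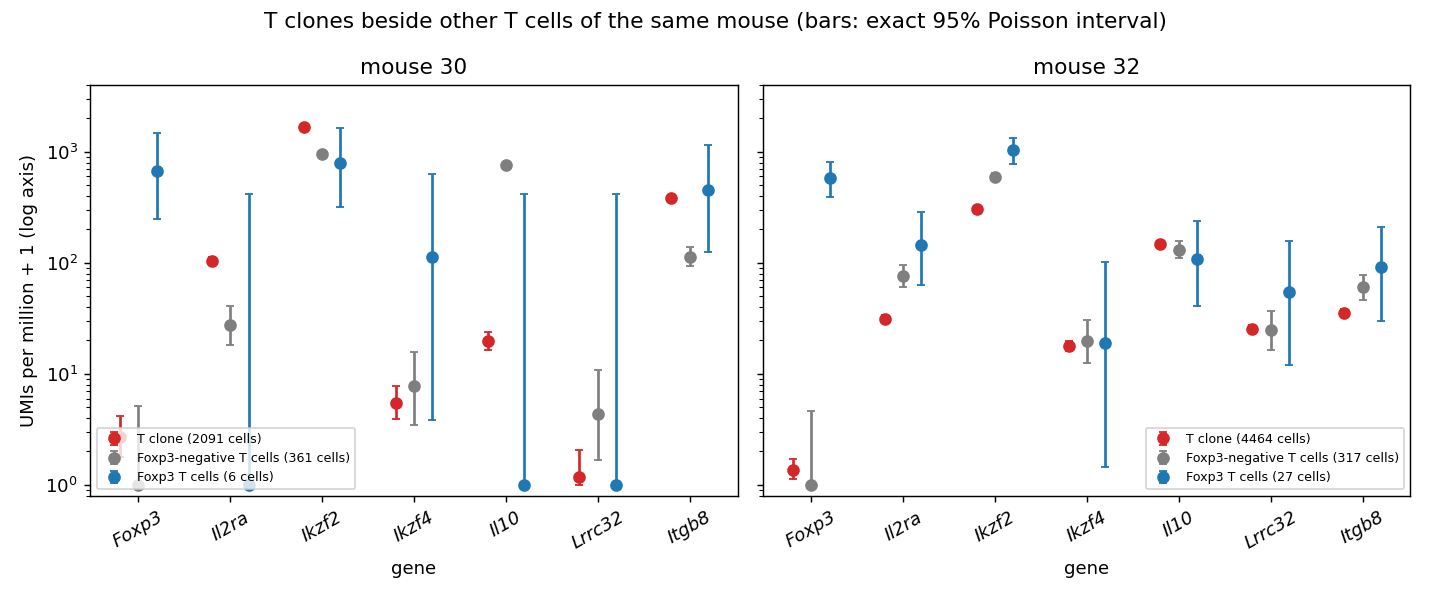
The 7 genes (horizontal axis) in the T clone, Foxp3-negative T cells and Foxp3 T cells of mouse 30 (left) and mouse 32 (right), as CPM plus 1 (log axis) with exact 95% Poisson intervals. In mouse 30 the clone lies above the Foxp3-negative T cells for Ikzf2, Itgb8 and Il2ra and far below them for Il10, and in mouse 32 it lies below them for the same 3 genes.

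The other T cells of the TCR mice were divided by receptor. In mouse 32, 28 T-like cells with a called receptor other than the clone's held a Foxp3 UMI, and they spread over 19 clonotypes, 16 of which had 1 such cell. Clonotype 3, with TRBV5, TRBJ2-2, TRAV5-4 and TRAJ56, held 8 of them among its 26 cells (30.8%). None of its cells had a Cd8 UMI. Its Ikzf2 level over all 26 cells was 2087 CPM and its Il2ra level 149 CPM. In mouse 30, 6 Foxp3 cells spread over 5 clonotypes.

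Among T cells of mouse 30 with another called receptor, Il10 was concentrated in 2 receptors. Of 689 Il10 UMIs in 394 cells with another called receptor, clonotype 5 (TRBV20 with TRBJ2-7) gave 212 from 16 cells and clonotype 2 (TRBV16 with TRBJ2-4) gave 189 from 38 cells, 30.8% and 27.4% of the total. No cell of either held a Foxp3 UMI. Clonotype 2 had Ikzf2 at 1278 CPM and clonotype 5 at 164 CPM, and both had Itgb8 at or below 22.4 CPM. In clonotype 5, 1 cell alone held 65 of the Il10 UMIs. A further 1177 Il10 UMIs lay in the 6803 T-like cells of that nodule without a TCR call or a Foxp3 UMI (132 CPM), whose receptors are not known.

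Foxp3 cells without a TCR call were compared with the clones by the Trbv segment in their RNA. In mouse 30, 3 of 14 such cells with a Trbv UMI had Trbv1, the segment of the clone, as the leading segment. It led in 1969 of 2930 (67.2%) of the uncalled T-like cells without a Foxp3 UMI and in 98.8% of clone cells. In mouse 32, 3 of 20 had Trbv26, against 47.5% of the uncalled T-like cells without a Foxp3 UMI. Ikzf2 stood at 1876 CPM in the 26 uncalled Foxp3 cells of mouse 30 and 1254 CPM in the 86 of mouse 32. Il10 in the latter was 858 CPM, but 67 of 143 UMIs came from 1 cell, and it was 471 CPM without it.

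Member levels in Foxp3 T cells are set side by side between the receptor groups without a test, since mouse 32 alone of the TCR mice had at least 20 such cells. Differences from the 3 BCR mice (29, 31 and 34) on the log2(CPM + 10) scale, TCR minus BCR, ran from -1.46 for Itgb8 (90.0 CPM and a mean of 331 CPM) to 0.56 for Lrrc32 (54.0 and 43.2 CPM).

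Outside T cells the levels depended on the member and the cell type, counting sets of at least 50 cells. Ikzf2 reached 91.1 and 129.7 CPM in the epithelial-like cells of mice 29 and 30, 60.5 and 75.1 CPM in erythroid-like cells, and 28.2 to 134.7 CPM in neutrophil-like cells. Lrrc32 stood at 32.6 ± 9.8 CPM (SD, n = 3 mice with at least 50 cells) in endothelial-like cells and at 7.92 and 26.4 CPM in fibroblast-like cells, and Itgb8 at 56.2 and 88.2 CPM in the epithelial-like cells of mice 29 and 30. Il10 in the B clones ranged from 0.6248 CPM (mouse 33) to 37.9 CPM (mouse 31) with a median of 11.4. In the 5 B clones Ikzf2 did not exceed 9.67 CPM and Itgb8 did not exceed 8.08. CD8 T cells had Ikzf2 from 50.3 to 327 CPM and Itgb8 from 1.68 to 16.2 CPM over the 6 mice with at least 50 such cells. In myeloid-like cells of mouse 30, Ikzf2 was 104 CPM, against 2.58 to 23.2 CPM in the other mice. The highest neutrophil-like and epithelial-like levels of Ikzf2 above, 134.7 and 129.7 CPM, were also of mouse 30. So was the higher epithelial-like level of Itgb8. The T clone of that nodule had 1658 CPM of Ikzf2 and 385 CPM of Itgb8. The part of RNA from the clone in these levels was not tested.

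The genes whose levels ran most like those of 5 members were ranked over 46 sums of cell set and mouse (12 sets, 15880 genes), as a description: many of these sums share a library and the order follows mainly which sets are T cells. For Ikzf2 they were Gata3 (Pearson r = 0.94), Ahi1 (0.92) and Ptger2 (0.92). For Il10 they were Bcl11b (0.86), Ifng (0.86) and Cd247 (0.86). For Itgb8 they were Gprasp2 (0.90), Gm13481 (0.90) and Zfp612 (0.88). Ikzf4 came with Aplp1 (0.88), 6330403K07Rik (0.84) and Izumo1r (0.83), and Lrrc32 with Atp8b2 (0.69), Nts (0.67) and Yes1 (0.67).

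Genes other than Foxp3 were tested between 192 Foxp3 T cells and 6247 Foxp3-negative T cells, summed per mouse (mice 29, 31, 32 and 34). The test was edgeR's quasi-likelihood test with mouse as a block. Of 8680 genes, 36 were higher (0.415%) and 70 lower (0.806%) in Foxp3 T cells at a Benjamini-Hochberg adjusted p under 0.05. All 6 members other than Foxp3 passed the filter on low counts, so the 8680 genes and the counts of calls include them. They were chosen with this contrast in view, so no test result is read for them. DESeq2 called 20 higher and 16 lower, a split with more higher genes. The comparison set held cytotoxic cells: the summed level of 10 genes of cytotoxic lymphocytes (Gzmk, Gzma, Gzmb, Nkg7, Ccl5, Ccl4, Eomes, Klrd1, Xcl1 and Prf1) was 1241 to 8816 CPM in Foxp3-negative T cells, where each of the 10 was detected in every mouse, and 71.6 to 913 CPM in Foxp3 T cells, where 1 to 5 were. The part of cytotoxic cells in the result was not tested. With both sets taken from the main cluster of Foxp3 cells, 3 genes were higher (0.049% of 6127) and 5 lower (0.0816%), 8 in place of 106, and 5 of the 8 were among the 106. Without mouse as a block 2 genes were called, and without mouse 31 64 were.

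Of 58 other genes tied to regulatory T cells, 52 were tested, of which 11 were higher and 4 lower in Foxp3 T cells. That is 21.2% and 7.69% of those tested, beside 0.415% and 0.806% of all genes. The list was chosen with earlier results of these data known, so these shares are a description. The median log2 ratio of the 52 was 0.19, against -0.11 for all genes. Without mouse 31, 6 were higher and 2 lower. The higher genes were receptors of the TNF family (Tnfrsf9, log2 1.16, SE 0.20, adjusted p = 3.4e-05; Tnfrsf4, 0.92, SE 0.19; Tnfrsf18, 0.80, SE 0.21), the surface proteins Itgae (the integrin chain CD103; 1.73, SE 0.28, adjusted p = 4.04e-06), Nrp1 (0.95, SE 0.20), Izumo1r (folate receptor 4; 1.22, SE 0.24) and Cd83 (0.89, SE 0.20), the secreted products Areg (amphiregulin; 0.83, SE 0.19) and Penk (proenkephalin; 0.74, SE 0.18), and Capg (1.25, SE 0.23) and Plagl1 (1.10, SE 0.25). Of these 11, 8 were higher in all 4 mice, and Tnfrsf9, Tnfrsf18 and Penk were higher in 3. Ctla4 (458 and 338 CPM, log2 0.23, SE 0.19) and Tigit (374 and 327 CPM, 0.05, SE 0.20) did not pass.

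Itgae illustrates the sizes. It was at 116 CPM in Foxp3 T cells and 28.001 in Foxp3-negative T cells of mouse 29. The same pair of levels was 121 and 60.7, 252 and 41.9, and 197 and 49.6 CPM in mice 31, 32 and 34. The sets did not overlap. The lower list genes were Themis (log2 -2.21, SE 0.28), Pde3b (-1.81, SE 0.40), Runx3 (-1.70, SE 0.38) and Cd40lg (-1.64, SE 0.38), each lower in 4 of 4 mice. Within the main Foxp3 cluster none of the 52 passed the edgeR test, and the 15 kept their direction. Itgae was at 1.12 (SE 0.29, edgeR adjusted p = 0.185) and Cd40lg at -1.60 (SE 0.38, edgeR adjusted p = 0.0945). The cluster was made from the same counts, and Areg and Penk stood out in it, so both sets there are alike partly by selection.

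**Figure D4:**
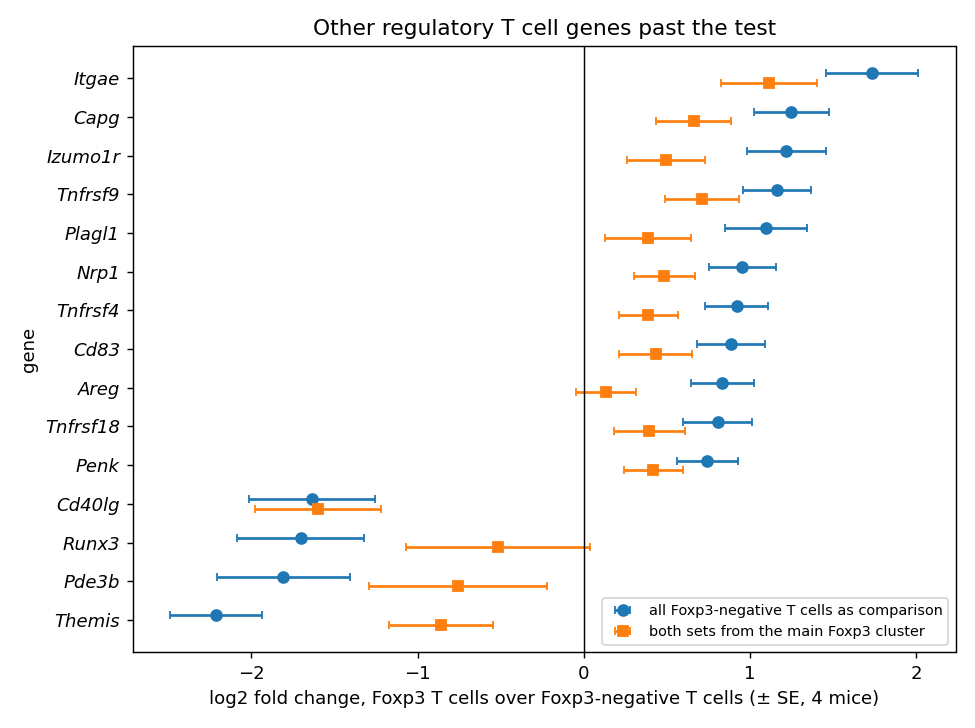
Log2 fold change of Foxp3 T cells over Foxp3-negative T cells (horizontal axis, ± SE, 4 mice) for the 15 other regulatory T cell genes that passed the test (vertical axis), with all Foxp3-negative T cells as comparison (blue) or both sets from the main Foxp3 cluster (orange). All 15 keep their side of 0, and each moves toward it within the cluster, Areg from 0.83 to 0.13. The cluster was made from the same counts.

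Among all other genes, those with the largest rise in Foxp3 T cells and the same direction in 4 of 4 mice were, beside list genes, Nckap5 (log2 2.50, SE 0.67, from 12 UMIs), Iigp1 (an interferon-inducible GTPase; 2.18, SE 0.31, adjusted p = 1.24e-07), E230029C05Rik (1.68, SE 0.42), Ston1 (1.66, SE 0.37), C9orf72 (1.31, SE 0.31), Csf1 (1.31, SE 0.34) and Bcl2l15 (1.30, SE 0.35). Iigp1 also passed within the main Foxp3 cluster (1.73, SE 0.35, adjusted p = 0.0236). Of the 10 largest falls, 6 were of genes not seen at all. Gzmk, Eomes, Trgv2, Xcl1, Fgf13 and Tgfbr3 had no UMI in the 192 Foxp3 T cells. They passed the filter on low counts only through the Foxp3-negative T cells, where they are high, so their calls are a description. Against a floor of 3 UMIs over the set, Gzmk was at least 23.7-fold lower and Eomes at least 11.5-fold lower. The bound was 5.20-fold for Trgv2, 4.75-fold for Xcl1, 3.88-fold for Fgf13 and 2.73-fold for Tgfbr3. Ccl4 (log2 -4.95, SE 0.32), Ccl5 (-4.62, SE 0.22), Ifng (-4.36, SE 0.42) and Ccl3 (-4.27, SE 0.57) were detected but low. Ccl5 was at -0.11 (SE 0.31, adjusted p = 0.998) within the main cluster, whereas Ifng stayed at -3.11 (SE 0.52, adjusted p = 0.00371).

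Of 14 genes of follicular helper cells and helper cytokines, 10 were tested, of which 0 were higher and 2 lower (Ifng and Cd40lg). Bcl6 (108 and 94.9 CPM), Cxcr5 (65.0 and 46.0 CPM), Maf (436 and 393 CPM) and Pdcd1 (193 and 176 CPM) did not pass, with log2 ratios from -0.07 to 0.34.

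The same 58 genes were followed in the T clones, against the Foxp3-negative T cells of the same nodule, counting a change of at least 2-fold on CPM plus 10 without a test. In the clone of mouse 30, 6 of 50 measured genes were higher and 12 lower, beside 4.67% and 4.36% of 6875 genes. Cd81 (293 and 41.4 CPM), Tnfrsf9 (254 and 62.6 CPM), Penk (2459 and 899 CPM), Pdcd1 (313 and 140 CPM), Ccr8 (105 and 44.7 CPM) and Tigit (877 and 431 CPM) were the higher ones. Of these, Tnfrsf9 and Penk were also higher in Foxp3 T cells. Themis (107 and 835 CPM), Lef1 (12.1 and 159 CPM), Entpd1, Prdm1 (68.2 and 209.0 CPM) and Irf4 (21.5 and 89.4 CPM) were among the lower. So were Izumo1r (26.0 and 88.3 CPM) and Plagl1, which were higher in Foxp3 T cells. Pde3b (1.13 and 23.5 CPM) was lower as well, and Themis and Pde3b were also lower in Foxp3 T cells. In the clone of mouse 32, 4 of 51 were higher and 10 lower, beside 4.33% and 4.15% of 6695 genes, and the higher ones were Lag3 (130.3 and 34.9 CPM), Cd81 (174 and 55.8 CPM), Tcf7 (706 and 274 CPM) and Ly6a (569 and 271 CPM). The 10 lower were Pde3b (2.69 and 113.6 CPM), Cd83 (20.6 and 168 CPM), Bach2 (11.3 and 104.7 CPM), Il1rl1 (10.8 and 85.7 CPM), Itgae (6.58 and 41.9 CPM), Satb1, Il7r (237 and 703 CPM), Entpd1, Plagl1 (21.7 and 61.8 CPM) and Nt5e. Cd83, Itgae and Plagl1 of these were higher in Foxp3 T cells, whereas Pde3b was lower in Foxp3 T cells too.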

How the data were processed

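RNA was deposited as raw UMI counts for each gene in each called cell, and the deposited contig files hold UMI counts per receptor contig with the clonotype the authors assigned. The authors made no normalization in these files. Per the labels the build is GRCm38 (mm10). The aligner and cell caller are not given in the sources used here, and the labels name a 5′ kit while the study's methods name a 3′ kit for RNA, so the transcript end counted is unsettled.

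A cell was kept from 201 UMIs and 101 genes upward if mitochondrial UMIs made up no more than 10%. Clusters (35, 30 principal components of 2000 genes, 15 neighbours, leidenalg 0.10.2, resolution 1) were named by at least 3 markers with a fold of 1.5 over the median cluster, and 7 stayed unnamed. This naming rule was revised after a first version left B cell, neutrophil and epithelial clusters unnamed. No doublets were removed. Cells with at least 2 UMIs of B cell genes were left out as an alternative. The T clone is the family of cells sharing the commonest β or α chain, T-like cells only.

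The members and gene lists were chosen with earlier results of these data known. The planned fit between Foxp3 cells and Foxp3-negative cells required a Cd4 UMI and 20 cells in each set, which no mouse had, so the same fit without a Cd4 UMI, listed as a second setting, is reported in its place. This switch was made after cell numbers were seen. Counts were summed per mouse, filtered (edgeR filterByExpr, minimum count 5) and tested with edgeR 4.0.16 (quasi-likelihood, mouse as block, since both sets come from the same animal, Benjamini-Hochberg over 8680 genes, Foxp3 left out), with DESeq2 1.42.0 as an alternative. The fit was tested on simulated data. Genes were named when past the test with the same direction in every mouse (the 10 largest each way), or when list members past the test. Genes named that did not pass (Ctla4, Tigit and 4 helper genes), the 10 cytotoxic genes and the receptor groups were chosen after their values were seen. Counting intervals cover counting error only, and a count of 0 is bounded by 3 counts. The genes most like Il2ra are not reported here.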

Additional observations from a re-analysis of the deposited data

Results flagged for a closer look

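In 35 groups of BCR mice, a single mouse stood apart from the others for 6 member levels by Dixon's criterion, which chance alone meets in about 1 of 20 groups. Ikzf4 in Foxp3-negative T cells of mouse 31 was 41.7 CPM, against 7.80 to 14.5 CPM in the other 4 BCR mice. Il2ra in the B clone of mouse 29 was 15.9 CPM, against 0.103 to 0.891 CPM in the other B clones, and other B-like cells of that nodule held 13.9 CPM. Il2ra in myeloid-like cells of mouse 34 was 13.1 CPM, against 2.70 to 4.55 CPM in the other BCR mice. It came from 9 UMIs in 107 cells (interval 5.97 to 24.8). That interval overlapped those of mice 27, 29 and 33, but not that of mouse 31 (0.99 to 5.87). The other 3 rest on 2 or 3 UMIs, too few to set a mouse apart. Ikzf4 in myeloid-like cells of mouse 34 was 4.35 CPM from 3 UMIs (interval 0.897 to 12.7), and the 0 of mouse 27 allows 2.58 CPM. Foxp3 in CD8 T cells of mouse 29 was 3.37 CPM from 2 UMIs, and the 0 of mice 27 and 31 allows 9.71 and 12.8 CPM. Foxp3 in its myeloid-like cells was 0.35 CPM from 2 UMIs, and the 0 of the other 4 BCR mice allows 0.594 to 4.35 CPM.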

How the results depend on the processing

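The number of genes called between Foxp3 T cells and Foxp3-negative T cells, 106 as reported, depended on the setting. It was 8 within the main Foxp3 cluster, 36 with DESeq2 (4207 genes without an adjusted p), 232 without a filter on low counts (25 higher and 207 lower), 205 with 10 cells per set, 37 with a Cd4 UMI and 10 cells per set, and 224 with the Foxp3 cells without a TCR call. Without the replicate block that pairs the sets of a mouse it was 2, both among the 106, and 320 genes had an unadjusted p under 0.05 in place of 839. Leaving out 1 mouse gave 64 (without mouse 31, the lowest) to 96 calls (without mouse 32), with 55 and 72 of them among the 106. BCR mice only (96), no B cell UMIs (102), thinning (91) and barcodes of 1 library (100) stayed within 1.5 times. The fit of BCR mice only is the same as that without mouse 32. None of the 32 genes named by the rule reversed in a setting where it was fitted, but some settings left genes out. Many no longer passed. Without the replicate block 1 passed and 31 did not, and with DESeq2 16 passed and 16 did not. Within the main cluster 2 passed and 21 did not. Ikzf4 went from 0.65 to -0.05 (log2) within the main cluster. The fit with at least 2 Foxp3 UMIs was not run, since no mouse had 20 such cells, nor was the same alternative for the comparison of the receptor groups.

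The difference in the share of CD4 T cells with a Foxp3 UMI, TCR minus BCR mice (-0.60 percentage points), was -1.35 with cells without a TCR call, -1.11 without thinning, -0.94 thinned to 2000 UMIs, -0.07 with barcodes of 1 library and 0.86 without a Cd4 UMI required, and ran from -1.73 to 0.53 when each mouse was left out (0.53 without mouse 30 and 0.17 without mouse 31). Member differences in Foxp3 T cells also changed sign: Ikzf4 was 0.35 with 1 CPM added, and with uncalled cells Ikzf2 was 0.16, Ikzf4 0.62 and Itgb8 0.039. Leaving out mouse 29, 31 or 34 in turn moved Ikzf2 from -0.48 to -0.16, Ikzf4 from -1.26 to 0.27, Il10 from -0.41 to 1.08, Il2ra from -0.68 to 0.17, Itgb8 from -2.03 to -0.86, Lrrc32 from 0.04 to 1.16, and Il2ra, Ikzf4 and Il10 changed sign without mouse 34.
In the clone of mouse 32, counting clone cells of every class, erythroid-like clusters included, gave 250.7 CPM of Ikzf2, 115 of Il10, 28.04 of Itgb8, 23.6 of Il2ra, 20.1 of Lrrc32 and 13.6 of Ikzf4. The alternatives within the main cluster, with 10 cells, with uncalled cells, with barcodes of 1 library and with all clone cells were added after seeing the data. Depth limits the rarest members most: 15 Ikzf4 and 18 Lrrc32 UMIs in Foxp3 T cells.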

Other observations

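The relatives of Ikzf2 in the Ikaros family also parted the clones. These genes were singled out after their values were seen, and no test was run. Ikzf3, the gene for Aiolos, was at 6.97 CPM in the T clone of mouse 30, against 201.2 CPM in the Foxp3-negative T cells of that nodule and 218 CPM in the T clone of mouse 32. Among the B clones it was at 1.34 CPM in mouse 31 and at 264 to 516 CPM in the other 4 mice. Ikzf1, the gene for Ikaros, was present in every clone, at 144 CPM in the T clone of mouse 30, 410.4 CPM in that of mouse 32 and 170.3 to 547 CPM in the B clones.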
